A study of Homo sapiens with 8 samples.

Results

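The colony-stimulating factors CSF1, CSF2 and CSF3 and 7 genes of prostaglandin synthesis and signalling (PTGS1, PTGS2, PTGES, PTGES2, PTGIS, PTGER2 and PTGER4) were followed in H2452, an established human cell line from a pleural mesothelioma of the biphasic kind. These 10 of the 20323 genes in the table were taken by symbol, and each symbol had 1 entry. They were chosen on their counts in DPT against DMSO, so their differences between the groups are given as a description with no test. Cells were kept for 48 h with 20 nM DPT, which the series title names as deoxypodophyllotoxin, a plant lignan that binds tubulin, or with DMSO, the solvent. There were 4 libraries per group, which the series design calls biological replicates. All 8 come from 1 cell line of wild-type genotype per the labels, with no second line and no other dose or time. The spread between libraries is therefore that of cultures of 1 line.

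CSF1 (M-CSF), CSF2 (GM-CSF) and CSF3 (G-CSF) are secreted proteins that drive the growth and activity of macrophages, dendritic cells and neutrophils through receptors on those cells. Prostaglandins are made in steps. A phospholipase frees arachidonic acid, a cyclooxygenase (PTGS1 or PTGS2) turns it into prostaglandin H2, and a terminal synthase makes prostaglandin E2 (PTGES, PTGES2) or prostacyclin (PTGIS), which then act on cell-surface receptors such as PTGER2 and PTGER4. CSF2, CSF3 and PTGS2 are textbook inflammatory genes with short-lived messages, whereas PTGS1 is the constitutive cyclooxygenase of many tissues.

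Library totals were 14964432 to 17205391 counts. DPT replicate 2 and DMSO replicate 3 stood apart from the other 6 libraries. The 18 interferon-stimulated genes listed as a marker of this split (19 table entries) summed to 2230 CPM in DPT replicate 2 and 3199 CPM in DMSO replicate 3, against 11405 to 12876 CPM in the other 6. CPM gives counts relative to a library's TMM-scaled total, and 1 CPM was 14.8 to 17.1 counts here. The 9 tested members are therefore shown with and without these 2 libraries, and their part in the values was not tested. All 10 mesothelial markers passed the filter on low counts, among them MSLN at 12.6 CPM in DPT and 16.3 CPM in DMSO, CALB2 at 14.3 CPM in DPT and 9.49 CPM in DMSO, and WT1 at 9.41 CPM in DPT and 8.17 CPM in DMSO. LRRN4 passed on 1 to 15 counts per library. Of 10 leukocyte markers 2 passed (CD14 and CD68), and PTPRC, the pan-leukocyte marker, had 0.438 CPM in DPT and 0.253 CPM in DMSO. The leukocyte list summed to 94.8 to 146 CPM in DPT libraries and 91.5 to 131 CPM in DMSO libraries, most of it CD68. The mesothelial list had 0 genes called higher and 2 lower in DPT (UPK3B and KRT18). Its median log2 fold change was -0.34, beside -0.0018 over all tested genes. The 6 endothelial and 18 interferon-stimulated genes had 0 and 0 called. The 5 platelet genes had 0 and 1, with sums of 1.74 to 2.02 CPM in DPT and 2.98 to 3.39 CPM in DMSO. In this fit of all 8 libraries, 5.68% of all tested genes were called higher and 5.29% lower. In the 6 libraries without the pair, 1 mesothelial marker was called higher and 6 lower, and 1 leukocyte marker higher and 1 lower. There 1 endothelial marker was higher and 0 lower, and of the 19 interferon-stimulated entries 1 was higher and 12 lower. Over all genes, 2158 of 12697 tested were higher and 2169 lower in these 6 libraries. With a model term for the pair the marker counts were the same, except that 0 interferon-stimulated entries were higher. In that fit 16.9% of all tested genes were higher and 17% lower. The endothelial genes summed to 2.94 to 4.96 CPM in DPT and 1.69 to 4.81 CPM in DMSO.

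By level, the members spanned several orders of magnitude. Levels of different genes are compared in FPKM, which divides by gene length. In DPT libraries CSF1 was highest at 109.8 ± 12.5 FPKM (mean ± SD, n = 4), then PTGES2 at 22.1 ± 1.84 FPKM and CSF2 at 10.1 ± 4.64 FPKM, and these did not overlap each other or the next member. CSF3 (1.76 FPKM), PTGER4 (1.38), PTGES (1.03), PTGIS (0.791), PTGS2 (0.749) and PTGS1 (0.413) followed, each with a range that overlapped that of its neighbour in the order. In DMSO libraries CSF1 (120.3 ± 11.8 FPKM) and PTGES2 (19.5 ± 0.817 FPKM) again led with no overlap. CSF2 (2.35 FPKM), PTGIS (1.79), CSF3 (1.26), PTGES (1.10) and PTGER4 (0.653) overlapped their neighbours. PTGS2 (0.273) and PTGS1 (0.202) overlapped each other below PTGER4, but the range of CSF3 (0 to 2.31 FPKM) took in both. PTGER2 was last in both groups. CSF1 alone made up 82 to 83.7% of the members' summed CPM in DPT libraries and 86.3 to 87.2% in DMSO libraries.

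**Figure D1:**
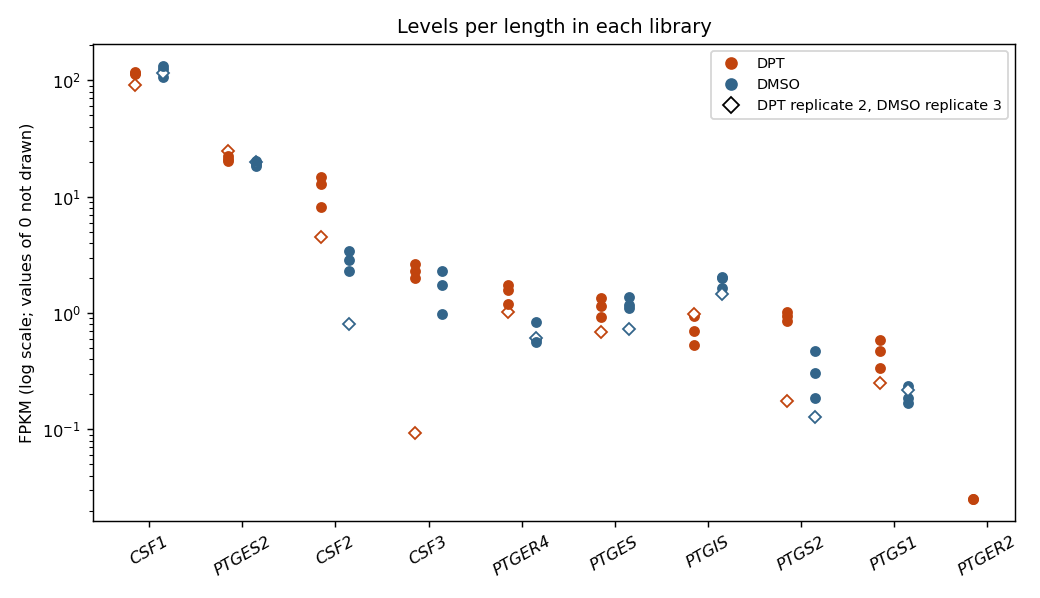
FPKM of the 10 members in each library on a log axis, DPT left of DMSO for each gene, with open diamonds for DPT replicate 2 and DMSO replicate 3 and values of 0 not drawn. CSF1 and PTGES2 lie above all other members in both groups. By mean CSF2 is the third in both, at 10.1 FPKM in DPT and 2.35 FPKM in DMSO, but its range in DMSO overlaps that of PTGIS.

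Among the colony-stimulating factors, CSF2 had the largest difference between the groups. CSF2 (ENSG00000164400, chromosome 5, 132073790 to 132076170 of GRCh38, plus strand) encodes GM-CSF, a growth factor for granulocytes and macrophages. It had 6.36, 3.54, 11.5 and 9.99 CPM in DPT replicates 1 to 4, against 2.30, 1.83, 0.642 and 2.77 CPM in DMSO replicates 1 to 4. The lowest DPT library, replicate 2, lay above the highest DMSO library, replicate 4. The counts behind these values were 59 to 192 in DPT and 11 to 42 in DMSO. The fitted log2 fold change was 2.06 (SE 0.453), a 4.18-fold higher level in DPT, and it was 2.01 in the 6 libraries without the pair that stood apart. Within that pair DPT replicate 2 exceeded DMSO replicate 3 by 2.25 log2 CPM.

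The promoter window of CSF2 is shown because this message differed most, and it can be set beside those of PTGS2 and PTGER4. RefSeq windows of 300 bases (250 before and 50 after the annotated start, GRCh38.p14) were found for 7 of the 10 members. Searched on both strands were a TATA box (TATAAA), an AP-1 site (TGANTCA), a CRE core (CGTCA), a C/EBP site (TTNNGCAA) and the kappa B consensus of 10 letters, and matches stand in capitals. None of the 5 was in the window of CSF2, which says only that these letters do not occur there. Of 35116 human windows of this length, 11.5% held the TATA box, 7.71% the AP-1 site, 24.6% the CRE core, 10.5% the C/EBP site and 11.3% the kappa B consensus. The window lies at chr5:132073539-132073838 on the plus strand.
CSF2: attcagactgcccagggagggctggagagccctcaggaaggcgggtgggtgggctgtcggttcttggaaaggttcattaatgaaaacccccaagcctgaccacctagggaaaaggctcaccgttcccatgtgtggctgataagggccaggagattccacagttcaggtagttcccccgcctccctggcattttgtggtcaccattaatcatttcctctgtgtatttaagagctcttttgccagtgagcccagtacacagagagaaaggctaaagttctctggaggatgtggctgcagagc

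CSF1 (ENSG00000184371, chromosome 1, 109910242 to 109930992), which encodes the macrophage growth factor M-CSF, went slightly the other way. It had 310.4, 244, 301 and 301 CPM in DPT replicates 1 to 4, against 348, 343, 296 and 369.8 CPM in DMSO replicates 1 to 4. DMSO replicate 3 lay below 3 of the DPT libraries, so the groups overlapped, although the 3 other DMSO libraries were above every DPT library. The log2 fold change was -0.23 (SE 0.096) and -0.22 in the 6 libraries. Within the pair DPT replicate 2 was below DMSO replicate 3 by a log2 CPM difference of -0.28.

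CSF3 (ENSG00000108342, chromosome 17, 40015361 to 40017813) encodes G-CSF, the growth factor of neutrophils. It had 2.94, 0.120, 3.89 and 3.37 CPM in DPT replicates 1 to 4, against 1.49, 3.52, 0 and 2.51 CPM in DMSO replicates 1 to 4. The groups overlapped. Both libraries that stood apart were at the bottom of their group, with 2 counts in DPT replicate 2 and 0 counts in DMSO replicate 3, where 3 counts, the limit that a count of 0 allows, would be 0.175 CPM. Limits of this kind cover counting error only. The other 6 libraries had 22 to 65 counts. The log2 fold change of 0.47 had an SE of 0.899 with all 8 libraries and was 0.44 in the 6. With 1 library left out it was 0.03 (without DMSO replicate 3) to 0.97 (without DMSO replicate 2), so single libraries set its size. CSF3 averaged 2.58 ± 1.68 CPM in DPT and 1.88 ± 1.5 CPM in DMSO (SD, n = 4 each).

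**Figure D2:**
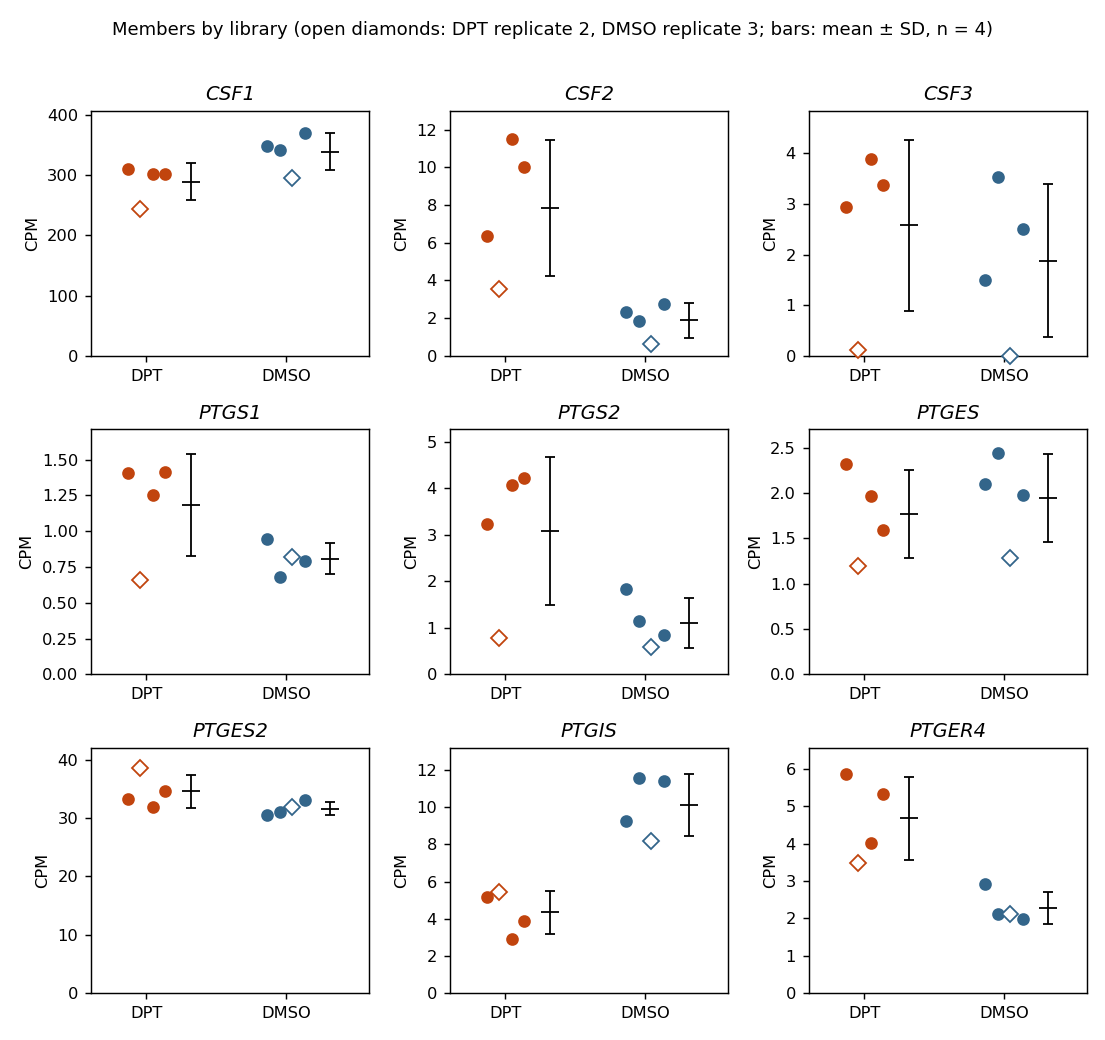
CPM of the 9 members that passed the filter in each library, DPT left of DMSO, on linear axes from 0, with black bars for mean ± SD (n = 4 per group) and open diamonds for DPT replicate 2 and DMSO replicate 3. CSF2 and PTGER4 lie higher in all 4 DPT libraries and PTGIS lies lower, whereas both diamonds of CSF3 lie at or near 0.

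Of the cyclooxygenases, PTGS2 was higher in 3 of the 4 DPT libraries. PTGS2 (ENSG00000073756, chromosome 1, 186671791 to 186680427, minus strand), the inducible enzyme COX-2, had 3.24, 0.779, 4.07 and 4.23 CPM in DPT replicates 1 to 4, against 1.83, 1.15, 0.584 and 0.857 CPM in DMSO replicates 1 to 4. DPT replicates 1, 3 and 4 lay above every DMSO library, and DPT replicate 2 lay below 3 of them, so the groups overlapped. These were 13 to 69 counts in DPT and 10 to 27 counts in DMSO. The log2 fold change was 1.48 (SE 0.515) with all 8 libraries, 1.58 in the 6 and 0.35 log2 CPM within the pair. The window of PTGS2, at chr1:186680374-186680673 on the minus strand and written 5′ to 3′ along the gene, held a TATA box 32 bases before the annotated start, a CRE core 58 bases before it, another 24 bases after it, and a C/EBP site 133 bases before it, in capitals below. A match to a motif is a description and not a bound site.
PTGS2: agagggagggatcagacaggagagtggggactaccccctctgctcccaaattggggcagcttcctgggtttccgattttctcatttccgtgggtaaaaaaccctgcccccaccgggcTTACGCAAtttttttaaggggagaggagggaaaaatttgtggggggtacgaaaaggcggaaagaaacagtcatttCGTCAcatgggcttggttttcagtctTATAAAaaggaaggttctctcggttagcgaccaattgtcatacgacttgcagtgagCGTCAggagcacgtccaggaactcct

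PTGS1 (ENSG00000095303, chromosome 9, 122370530 to 122395703), the constitutive enzyme COX-1, was near the limit of the filter. It had 1.41, 0.659, 1.26 and 1.41 CPM in DPT replicates 1 to 4, against 0.948, 0.678, 0.817 and 0.791 CPM in DMSO replicates 1 to 4, from 10 to 23 counts per library. DPT replicate 2 was the lowest of all 8, and the other 3 DPT libraries lay above every DMSO library. The log2 fold change was 0.54 (SE 0.307), 0.75 in the 6 libraries and -0.27 log2 CPM within the pair. The authors' FPKM of PTGS1 does not follow its counts closely. Counts, FPKM and library totals together imply a gene length of 2170 bases in one library and 5010 in another, a 2.31-fold range, against a range of at most 1.23-fold for each of the other 8 members with counts. The level of PTGS1 per length is therefore less certain than that of the others.

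The terminal synthases differed from one another. PTGIS (ENSG00000124212, chromosome 20, 49503874 to 49568146), which makes prostacyclin, had 5.14, 5.45, 2.93 and 3.86 CPM in DPT replicates 1 to 4, against 9.28, 11.6, 8.17 and 11.4 CPM in DMSO replicates 1 to 4. Every DPT library lay below every DMSO library. The counts were 49 to 91 in DPT and 137 to 173 in DMSO, and the log2 fold change was -1.22 (SE 0.211), which is 2.32-fold lower in DPT. It was -1.44 in the 6 libraries and -0.57 log2 CPM within the pair. The fibroblast markers summed to 161 to 255 CPM in DPT libraries and 401 to 498 CPM in DMSO libraries, most of it COL1A2. With all 8 libraries, 2 of 4 tested markers were lower (PDGFRB and COL1A2), against 5.29% of all tested genes. In the 6 libraries 4 were lower, against 2169 of 12697 tested genes. FAP also passed the filter there and was not called (log2 fold change 1.14). Over all 8 libraries FAP averaged 0.923 CPM in DPT and 0.460 CPM in DMSO, and 1 PDGFRA entry 0.181 and 0.048 CPM. The second PDGFRA entry had 0.015 CPM in DPT and 0.044 CPM in DMSO. DCN and LUM had 0 counts in all 8. The list is named for fibroblasts, but all 8 libraries come from 1 cell line. The part of these markers in the difference of PTGIS was not tested. Fewer cells with a message and less of it per cell cannot be told apart in bulk RNA.

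Both prostaglandin E synthases had groups that overlapped. PTGES (ENSG00000148344, chromosome 9, 129738331 to 129753047), the inducible microsomal synthase that works with COX-2, had 2.32, 1.20, 1.97 and 1.59 CPM in DPT replicates 1 to 4, against 2.10, 2.44, 1.28 and 1.98 CPM in DMSO replicates 1 to 4. DPT replicate 2 and DMSO replicate 3 were the lowest of their groups. PTGES2 (ENSG00000148334, chromosome 9, 128120693 to 128128462), the second membrane-associated synthase, had 33.3, 38.5, 31.8 and 34.6 CPM in DPT replicates 1 to 4, against 30.4, 31.0, 31.8 and 33.1 CPM in DMSO replicates 1 to 4. Here DPT replicate 2 was the highest of all 8. The log2 fold change was -0.13 (SE 0.285) for PTGES, with no count above 38 in any library, and -0.15 in the 6 libraries. It was 0.13 (SE 0.077) for PTGES2, from 449 to 642 counts, and 0.08 in the 6 libraries.

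The receptors of prostaglandin E2 were unequal in level. PTGER4 (ENSG00000171522, chromosome 5, 40679498 to 40693735), the EP4 receptor, which raises cyclic AMP, had 5.87, 3.48, 4.01 and 5.33 CPM in DPT replicates 1 to 4, against 2.91, 2.10, 2.10 and 1.98 CPM in DMSO replicates 1 to 4. Every DPT library lay above every DMSO library, with DPT replicate 2 the lowest of its group. The counts were 58 to 96 in DPT and 30 to 43 in DMSO. The log2 fold change was 1.04 (SE 0.227), 1.12 in the 6 libraries and 0.69 log2 CPM within the pair. The gene overlaps TTC33 on the opposite strand, and the labels do not say if the counting used strand. PTGER2 (ENSG00000125384, chromosome 14, 52314305 to 52328606), the EP2 receptor, which also raises cyclic AMP, had 1 count in each of DPT replicates 1 and 3 and 0 counts in the other 6 libraries. It did not pass the filter and no fold is given.

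The window of PTGER4 is shown because this receptor was higher in every DPT library. It lies at chr5:40679665-40679964 on the plus strand and held a match to the kappa B consensus near its upstream end, in capitals, and none of the other 4 motifs. The window of PTGER2, which had 0 to 1 counts per library, also held a kappa B match, and a CRE core. Of the 2 windows of PTGS1, 1 held a TATA box, and those of PTGES and PTGES2 held no match. Any part of these motifs in the levels was not tested.
PTGER4: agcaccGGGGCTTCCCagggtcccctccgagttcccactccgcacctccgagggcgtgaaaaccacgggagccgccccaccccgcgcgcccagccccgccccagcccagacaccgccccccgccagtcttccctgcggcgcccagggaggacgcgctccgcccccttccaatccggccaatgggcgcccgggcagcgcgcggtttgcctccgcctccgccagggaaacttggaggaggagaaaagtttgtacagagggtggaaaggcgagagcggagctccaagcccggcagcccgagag

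With all 8 libraries, 2 of the 9 tested members passed the threshold as higher in DPT (CSF2 and PTGER4) and 1 as lower (PTGIS). The threshold was an adjusted p under 0.05 in edgeR's quasi-likelihood fit over all 12648 tested genes, of which 5.68% were called higher and 5.29% lower. The same members were the ones whose groups did not overlap, where 9.5% of all tested genes lay above and 8.73% below in every DPT library. With a term in the model for DPT replicate 2 and DMSO replicate 3, PTGS2 was added among those higher and CSF1 among those lower, against 16.9% and 17% of all genes. PTGS2 was also called higher by DESeq2 on all 8 libraries, as were 1016 of 12648 genes. In edgeR without DPT replicate 2 it was called higher as well, as were 1183 of 12775 genes. Since this contrast chose the members, nothing is read from these counts. The median log2 fold change of the 9 was 0.47, beside -0.0018 over all tested genes.

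**Figure D3:**
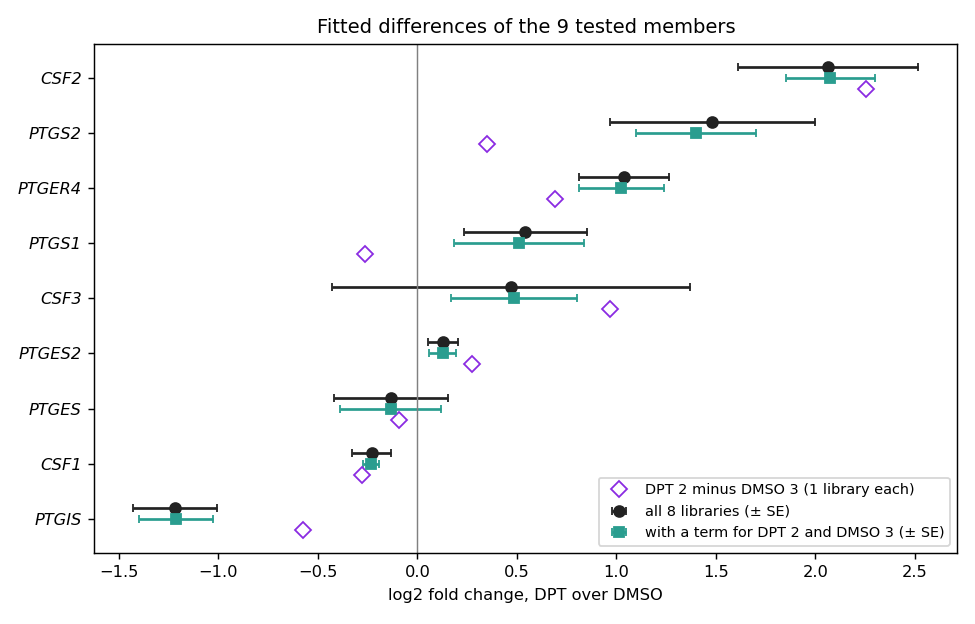
Log2 fold change, DPT over DMSO, of the 9 tested members from all 8 libraries (circles ± SE) and with a term for DPT replicate 2 and DMSO replicate 3 (squares ± SE), beside the difference within that pair (open diamonds, 1 library each, no error). CSF2 lies near 2 by all 3, PTGS2 lies at 1.48 and 1.40 by the fits but at 0.35 within the pair, and PTGIS lies at -1.22 and -1.21 against -0.57.

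Among 22 other genes of the prostanoid pathway, 0 rose and 3 fell of the 12 table entries tested. Over all tested genes 5.68% were called higher and 5.29% lower. The median log2 fold change of the list was -0.17, beside -0.0018 over all tested genes. At an unadjusted p under 0.05 edgeR also gave 0 higher, as did DESeq2 and limma after adjustment. AKR1B1, an aldose reductase that can make prostaglandin F2, averaged 1249 ± 96.4 CPM in DPT and 1828 ± 151 CPM in DMSO (SD, n = 4 each), with -0.55 as its log2 fold change (SE 0.081) and 0.00398 as its adjusted p. SLCO2A1, the prostaglandin uptake transporter, averaged 17.1 ± 3.35 CPM in DPT and 27.6 ± 1.94 CPM in DMSO (log2 fold change -0.69, adjusted p = 0.0114). AKR1C3, a prostaglandin F synthase, averaged 89.2 ± 24.6 CPM in DPT and 154 ± 22.4 CPM in DMSO (log2 fold change -0.79, adjusted p = 0.0213). All 3 were lower in each DPT library than in each DMSO library, as were 8.73% of all tested genes. Reads of AKR1C3 can be shared with its close AKR1C relatives, and its call was lost without any of DPT replicates 1, 3 and 4 and DMSO replicates 1 and 4 (adjusted p 0.0504 to 0.0728).

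The 2 most abundant uncalled genes of that list, by the naming rule, were PTGES3 and CBR1. PTGES3, the cytosolic prostaglandin E synthase and HSP90 co-chaperone p23, averaged 428 ± 41.0 CPM in DPT and 413 ± 48.0 CPM in DMSO (adjusted p = 0.793). CBR1, a carbonyl reductase that can turn prostaglandin E2 into F2, averaged 141 ± 14.2 CPM in DPT and 147 ± 11.7 CPM in DMSO (adjusted p = 0.711). PLA2G4A, the cytosolic phospholipase that feeds the cyclooxygenases, did not pass the filter, at 0.503 ± 0.387 CPM in DPT and 0.246 ± 0.0744 CPM in DMSO. The receptors PTGER1, PTGER3, PTGDR, PTGDR2 and TBXA2R also fell short of it, whereas PTGFR (8.26 CPM in DPT, 8.72 CPM in DMSO) and PTGIR (1.57 CPM in DPT, 1.96 CPM in DMSO), the prostaglandin F and prostacyclin receptors, were tested and not called. The symbol PTGR2 had 2 entries, 1 of which GENCODE 29 names AC005520.1.

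Of 11 receptors and growth factors related to the colony-stimulating factors, 4 were tested, 1 rose and 0 fell (1 lower at an unadjusted p under 0.05, 1 lower by DESeq2, 0 by limma). Beside this, 5.68% of all tested genes were called higher and 5.29% lower. KITLG, stem cell factor, had 149, 165, 196 and 176 CPM in DPT replicates 1 to 4, against 79.6, 73.7, 130 and 76.5 CPM in DMSO replicates 1 to 4. The groups did not overlap (9.5% of all tested genes lay above in every DPT library), and DMSO replicate 3 lay well above the other DMSO libraries. Its log2 fold change of 0.93 had an SE of 0.18 and an adjusted p of 0.0124, and it was 0.34 log2 CPM within the pair. The call was kept in each fit that left out 1 library (adjusted p 0.000268 to 0.0474). IL34, a ligand of the CSF1 receptor, averaged 0.953 ± 0.0546 CPM in DPT and 1.88 ± 0.713 CPM in DMSO (log2 fold change -0.98, adjusted p = 0.0652), and once the pair had its own term the adjusted p was 0.024.

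The receptors for the 3 factors themselves were nearly all near or at 0. CSF2RA, the binding chain of the GM-CSF receptor, averaged 26.6 ± 3.59 CPM in DPT and 25.2 ± 4.38 CPM in DMSO (adjusted p = 0.782). CSF2RB, the signalling chain it shares with the receptors of IL3 and IL5, had 0 to 3 counts per DPT library and 0 to 2 per DMSO library. CSF1R, the receptor of M-CSF, had 7 to 12 counts per DPT library and 2 to 8 per DMSO library, and CSF3R, the receptor of G-CSF, had 0 counts in all 8. A count of 0 allows up to 0.179 to 0.203 CPM per library, or 0.175 CPM in DMSO replicate 3, the largest library.

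The 9 proteins listed for AU-rich message ends include regulators of the lifetime or translation of messages such as CSF2 and PTGS2. All 9 were expressed and tested, and 0 rose and 1 fell, against 5.68% and 5.29% of all tested genes. The median log2 fold change was -0.02, beside -0.0018 over all tested genes. At an unadjusted p under 0.05 and by DESeq2 the counts were also 0 and 1, and limma on FPKM gave 0 and 0. TIA1, a translational silencer, averaged 50.7 ± 3.52 CPM in DPT and 65.0 ± 4.89 CPM in DMSO (log2 fold change -0.36, adjusted p = 0.0192). This call was lost without any of DPT replicates 1 and 3 and DMSO replicates 1, 2 and 4 (adjusted p 0.0508 to 0.0673) and by limma. ZFP36L1, which speeds message decay, averaged 264 ± 60.2 CPM in DPT and 274 ± 53.3 CPM in DMSO (adjusted p = 0.898), and KHSRP, another decay factor, 247 ± 10.0 CPM in DPT and 251 ± 7.65 CPM in DMSO (adjusted p = 0.859). When the pair had its own term, ZC3H12A was also called, as higher (log2 fold change 0.59, adjusted p = 5.12e-06). It encodes the nuclease Regnase-1 and is listed as a regulator of message lifetime rather than as a binder of AU-rich ends.

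The lipoxygenase branch, which turns arachidonic acid into leukotrienes, was mostly silent. Only 2 of its 10 genes passed the filter, and 0 rose and 1 fell, against 5.68% and 5.29% of all tested genes. The list's counts were 0 and 2 at an unadjusted p under 0.05, 0 and 1 by DESeq2 and 0 and 0 by limma. LTB4R, a leukotriene B4 receptor, averaged 17.2 ± 1.79 CPM in DPT and 23.8 ± 3.46 CPM in DMSO (log2 fold change -0.47, adjusted p = 0.0374). It overlaps LTB4R2 on the same strand, and its call held with 1 library left out only without DPT replicate 2 or DMSO replicate 3 (adjusted p 0.055 to 0.109 in the other 6 such fits). LTA4H, which makes leukotriene B4, averaged 41.7 ± 2.71 CPM in DPT and 47.6 ± 1.81 CPM in DMSO (adjusted p = 0.111), and LTC4S, which makes leukotriene C4, was not tested at 0.227 CPM in DPT and 0.350 CPM in DMSO.

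**Figure D4:**
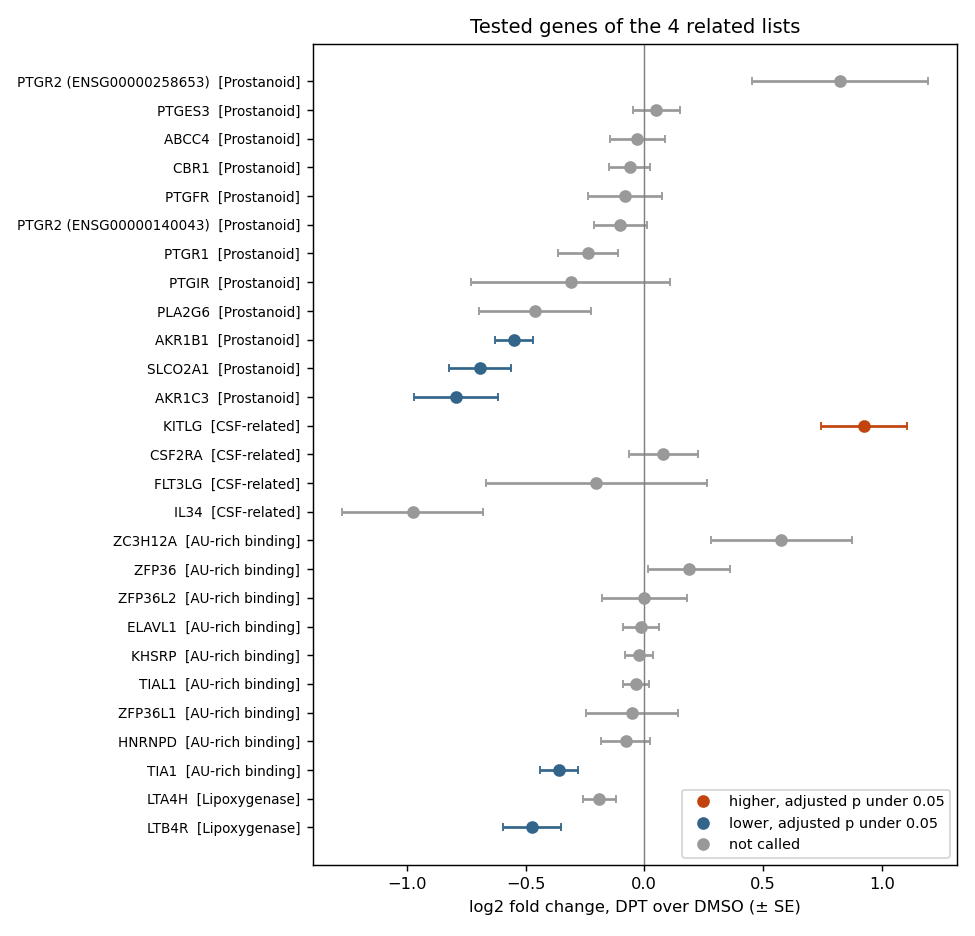
Log2 fold change ± SE, DPT over DMSO, of the 27 tested entries of the 4 related lists, grouped by list, with red for called higher, blue for called lower and grey for not called. KITLG is the 1 entry called higher, and AKR1B1, SLCO2A1, AKR1C3, TIA1 and LTB4R are called lower.

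For CSF2, PTGS2, PTGER4 and PTGIS, whose log2 fold changes were 1 or more in size, the 3 genes nearest in profile were taken by the root mean square difference of log2 CPM, centred on each gene's mean, over the 8 libraries. CSF2 lay nearest to the chemokine CXCL3 (0.22 log2 CPM) and to the interleukin-1 genes IL1B (0.30) and IL1A (0.33). PTGS2 lay nearest to SIGLEC15 (0.32), POU2F2 (0.34) and the integrin ITGA2 (0.36). PTGER4 lay nearest to PHKA1 (0.15), PLS1 (0.17) and SPTBN5 (0.18), and PTGIS to AMOT (0.16), PRICKLE1 (0.17) and CPA4 (0.18). In CSF2, CXCL3, IL1B and IL1A, DPT replicates 3 and 4 were the 2 highest libraries and DMSO replicate 3 the lowest. The likeness is a description over 8 libraries and includes the difference between the groups.

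**Figure D5:**
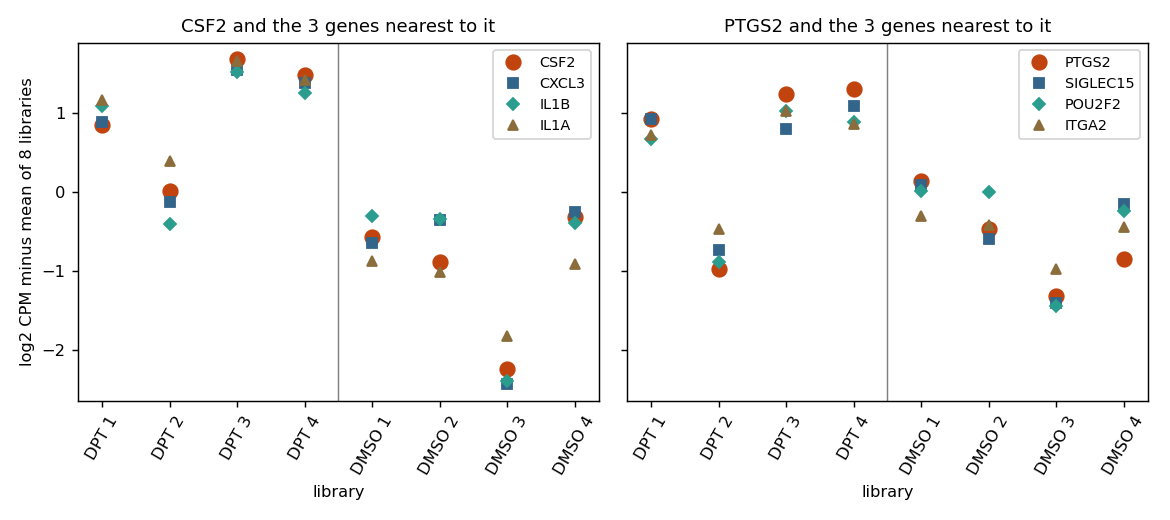
Log2 CPM minus each gene's mean over 8 libraries, for CSF2 and PTGS2 (large circles) and the 3 genes nearest to each, by library with DPT left of DMSO. DMSO replicate 3 is the lowest library for all 8 genes drawn, and DPT replicate 2 is the lowest of the DPT libraries.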

How the data were processed

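Messenger RNA of H2452 cells was sequenced in 8 libraries, 4 per group. The deposited table held 20323 Ensembl genes with an expected count and an FPKM per library, both computed by the authors. The expected counts are estimates per the file headers and the values (10.8% were not whole). FPKM, per the file headers, scales fragments by gene length and library size. RSEM, DESeq2, StringTie 1.3.1, HISAT2, fastp 0.18.0 and the hg38 build are named, with no role or order, per the submitters' processing notes. No source used here gives settings, strand use or the gene annotation. Such counting divides reads among similar genes, so values of near-identical genes are uncertain. The labels give no batch.

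Counts were rounded and tested with edgeR 4.0.16 in R 4.3.3 (filterByExpr with a minimum count of 10 and minimum total of 15, TMM, quasi-likelihood test, treatment term, all 8 libraries), which kept 12648 genes. The steps were checked on simulated data that left out the split of DPT replicate 2 and DMSO replicate 3. The check therefore does not cover that split. P-values are two-sided and were adjusted by Benjamini-Hochberg across the tested genes, with calls under 0.05, and SE is that of the fitted log2 fold change. CPM uses the TMM-scaled totals. The 10 members, the lists and the alternatives were chosen with earlier results of these data known. Named were all members, of each list up to 4 called genes per direction by adjusted p and the 2 most abundant uncalled genes, every CSF receptor, and the 3 nearest profiles (prior count 2) of members whose log2 fold change was 1 or more in size. Other genes of the lists are mentioned where a count needs them, and were picked after their values were seen.

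Alternatives were DESeq2 1.42.0, RLE size factors, no filter, limma 3.58.1 on log2(FPKM + 1) and log2(FPKM + 0.1) for genes of at least 0.1 FPKM, a replicate block, a term for DPT replicate 2 and DMSO replicate 3, the other 6 libraries, and leaving out each library. Replicates differed by more than sampling noise (chi-square per gene 2.66 to 54.3 between replicates). Coordinates are from GENCODE 29 (GRCh38), which holds 20171 of the 20323 identifiers and all 10 members. Promoters are from RefSeq.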

Additional observations from a re-analysis of the deposited data

Results flagged for a closer look

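CSF1 in DPT replicate 2 lay far below the other 3 DPT libraries (244 against 301 to 310.4 CPM), with a gap of 0.862 of the group's range. PTGER4 in DMSO replicate 1 lay far above the other 3 DMSO libraries (2.91 against 1.98 to 2.10 CPM), with a gap of 0.867. Chance gives a gap this large in about 1 of 20 groups. These were 2 of the 20 groups of 4 libraries looked at for the 10 members.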

How the results depend on the processing

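Over all genes, 718 were called higher and 669 lower. The counts were 171 and 174 with a replicate block, 2140 and 2156 with the term for the pair, 2158 and 2169 in the 6 libraries, 332 to 1183 and 311 to 1108 with 1 library left out, and 326 and 314 lower by limma with a pseudocount of 1 and 0.1. Members called higher were 0 with the block and 0 to 3 with 1 library left out, and those called lower were 2 with the term and in the 6 libraries. CSF2 dropped below the threshold without DPT replicates 3 or 4 or DMSO replicates 1 or 2, and PTGER4 without DPT replicates 1 or 4 or DMSO replicates 2 or 4. The other prostanoid genes called lower were 1 with the block and 5 in the 6 libraries, and 2 to 3 with 1 library left out. CSF-related genes called lower were 1 by DESeq2, with the term and in the 6 libraries. Genes of the AU-rich list called higher were 1 with the term and in the 6 libraries. Those lower were 0 by limma with either pseudocount and with the block, and 0 to 1 with 1 library left out. Lipoxygenase genes called lower were 0 by limma with either pseudocount and with the block, 2 with the term and in the 6 libraries, and 0 to 2 with 1 library left out. The cause of these shifts was not tested, and fits with fewer libraries have less to test with.

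Whether the replicate numbers pair the libraries is not known. Correlations of same-numbered deviations from the group means were 0.20, -0.31, -0.40 and 0.21 for replicates 1 to 4. DPT replicate 2 and DMSO replicate 3 dominate these deviations, so the correlations cannot show or exclude pairing. Chi-square per gene was 44.6 to 54.3 between these libraries and their replicates, and 2.66 to 5.33 among the others. The block rests on the number alone. PTGES, not called, had a log2 fold change of -0.30 to 0.01 with 1 library left out. Limma on log2(FPKM + 1) gave 0.43 for PTGS2, 0.52 for PTGER4 and -0.64 for PTGIS. With a pseudocount of 0.1 it gave 1.085, 0.96 and -1.10. A larger pseudocount shrinks the change of low genes, and what else separates these values from those of edgeR was not tested. PTGS1 and PTGES rest on 10 to 38 counts per library and PTGER2 on 0 to 1. The SE of CSF3 was 0.899 with all 8 libraries and 0.316 with the term for the pair.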

Other observations

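IL3, the neighbour of CSF2 on chromosome 5 with 10586 bases between them, had 1 count in each of DPT replicates 2 and 4 and 0 counts in the other 6 libraries. CSF2 had 59 to 192 counts per DPT library and 11 to 42 per DMSO library. IL5, on the same chromosome, did not pass the filter either. PTGES and PTGES2 lie 1609869 bases apart on chromosome 9. PTGER3, the EP3 receptor, which lowers cyclic AMP, did not pass the filter but had 7, 7, 14 and 9 counts in DPT replicates 1 to 4, against 4, 4, 0 and 5 counts in DMSO replicates 1 to 4. It was picked after its values were seen and was not tested.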
